A study of Mus musculus with 2 samples.

Results

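The genes of interleukin and interferon receptors, Janus kinases (JAKs) and STAT transcription factors were examined in gamma delta T cells of the mouse spleen. They were chosen by symbol, from the platform's annotation: Il plus a number followed by r, Ifnar, Ifngr, Jak or Stat plus a number, and Tyk2, Il6st and Crlf2. Of 4331 genes with a probe of their own, 39 were members, read by 43 probes. By function 29 were receptor chains (25 for interleukins or related cytokines and 4 for interferons), 1 was the soluble antagonist Il1rn, 3 were JAKs and 6 were STATs.

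CD5-positive gamma delta T cells came from the spleens of LAT3YF mice and of wildtype mice. Both populations were enriched with anti-CD5 magnetic beads and sorted by flow cytometry, and their total RNA was hybridised to 2-colour arrays. LAT is a membrane adaptor on which signalling enzymes assemble once the T cell receptor is engaged, and 3YF stands for tyrosines of LAT replaced by phenylalanine. The labels give no age, sex, number of animals, pooling or genetic background, and no treatment. The series holds 2 arrays, named + polarity and - polarity, which carry the same 2 populations with the dyes reversed. They count as 1 replicate of the comparison, so no difference between LAT3YF and wildtype was tested, and each SD is over the 2 arrays. Nothing states whether the arrays carry the same or separate RNA extracts, so an SD may cover technical error alone or the spread between samples as well.

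Each value is a log10 ratio of the populations, given for the array with + polarity and the one with - polarity, and the sign of the - polarity array was turned so that both arrays run the same way. The labels do not give the numerator of the ratio. A positive value therefore marks more transcript in one population and a negative value more in the other, with LAT3YF and wildtype unassigned. As landmarks, the type 2 genes Gata3 (0.593 ± 0.0057, SD of 2 arrays) and Il13 (1.01 ± 0.055) lay on the positive side, and Cd8b1 (-1.18 ± 0.082), the CD8 beta chain, lay on the negative side. Base 10 was assumed, and if the deposited logarithms had base 2, the largest member ratio, 4.10-fold for Il1r2, would be 1.53-fold. No intensities were used, so whether a receptor or a cell type marker was present at all could not be read, only its ratio. Precision is limited by there being only 2 arrays.

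Interleukin and interferon receptors have no kinase activity of their own. Type I and type II cytokine receptors bind JAKs at their inner tails, and the JAKs phosphorylate STATs, which then enter the nucleus and bind DNA. Receptors of the interleukin-1 family signal instead through a Toll/interleukin-1 receptor domain and the adaptor MyD88, and interleukin-17 receptors use the adaptor Act1. In T cells the set of receptor chains on the surface decides which cytokines a cell can sense for survival, expansion and effector choice.

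Most receptor, JAK and STAT genes stayed below 2-fold between the populations. Past 2-fold on the mean, with matching signs on the arrays, lay 1 member on the positive side (Il1r2, 4.10-fold) and 1 on the negative side (Ifngr1, 2.40-fold). Among all 4331 named genes, 3.72% passed on the positive side and 5.03% on the negative side, together 8.75%, against 5.13% of the members. A lower limit of 1.5-fold, again with matching signs, was passed by 10 of the 39 members (25.6%), beside 17.9% of all named genes. On the positive side these were Il1r2, Jak3 and Il12rb1 (7.69% of the members, 8.43% of all genes). On the negative side they were Ifngr1, Il9r, Ifnar2, Il1r1, Il10rb, Il5ra and Il6st (17.9% of the members, 9.44% of all genes). The median over the members was -0.0129, and over all named genes it was 0.00231. The quartiles of the members were -0.146 and 0.101, and those of all named genes were -0.0705 and 0.0760. Taken without sign, the median log10 ratio was 0.111 for the members and 0.073 for all named genes.

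A total of 26 of the 39 members had matching signs with + and - polarity (66.7%), beside 59.6% of all named genes. The other 13 changed sign between the arrays, so their means give no side. They were Il1rap, Il17rb, Il2ra, Il2rb, Il7r, Crlf2, Il13ra2, Il6ra, Il11ra2, Il12rb2, Tyk2, Stat3 and Stat4. In Il2rb, Il7r and Stat4 the ratio was near 0 on each array, whereas Il2ra, Il13ra2 and Il6ra had sizeable ratios of opposite sign.

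**Figure D1:**
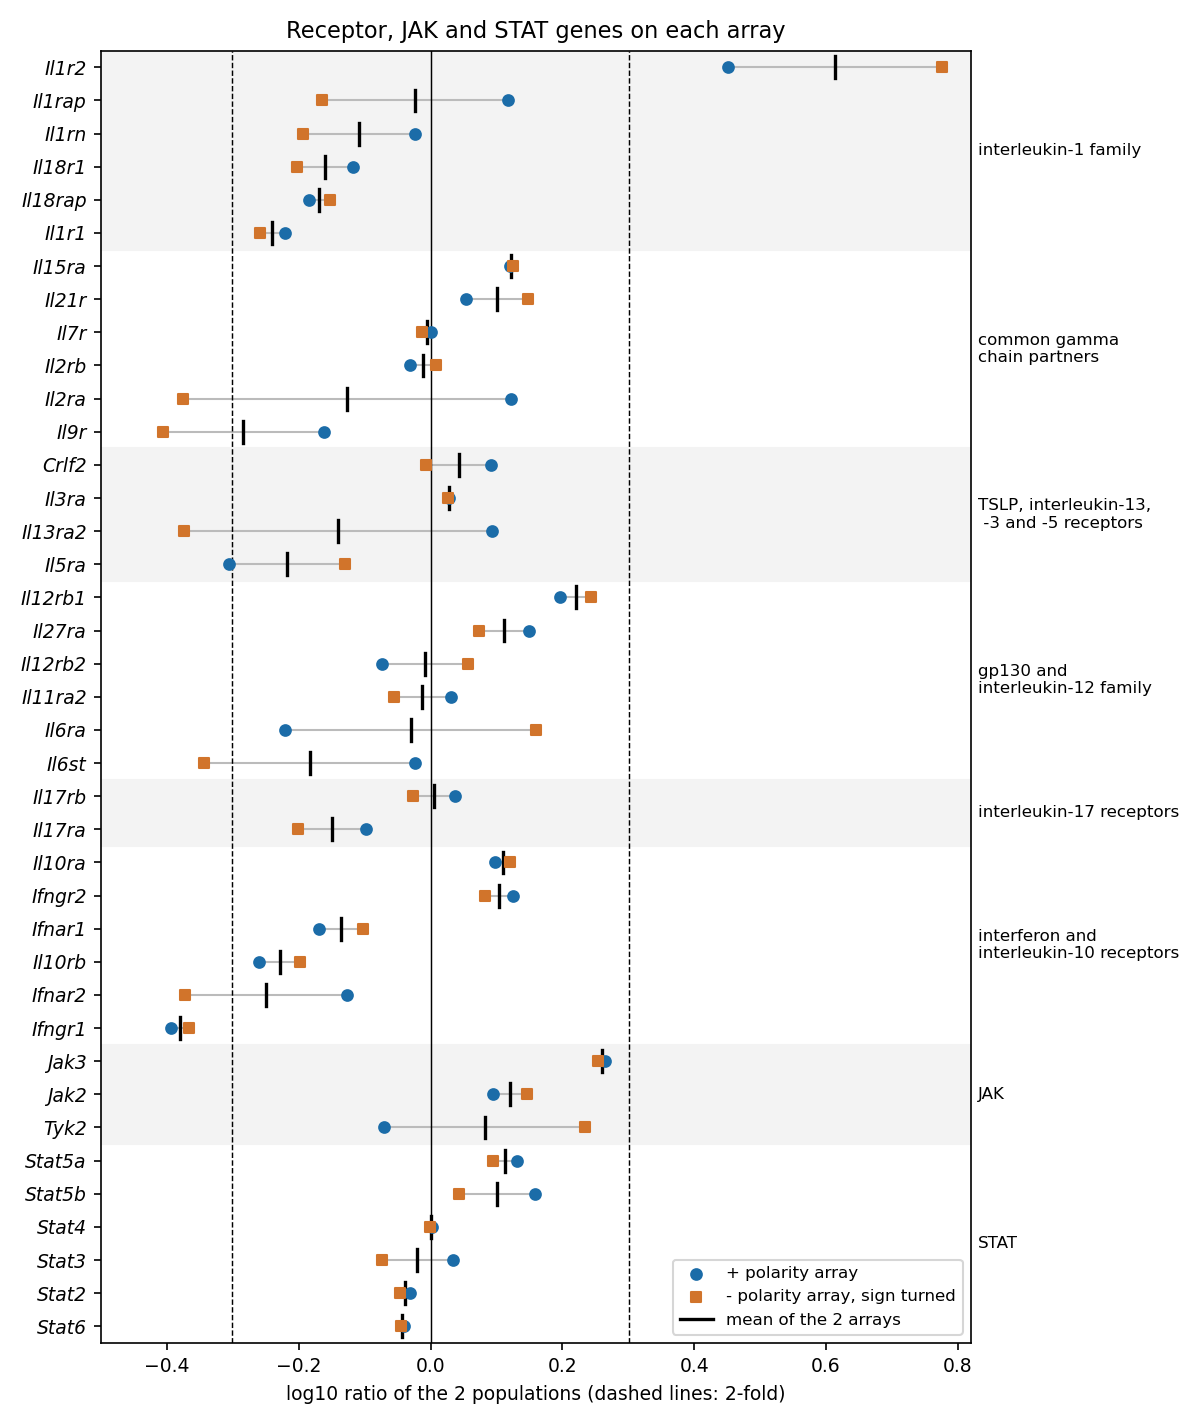
Log10 ratio of each receptor, JAK and STAT gene on the + polarity array (circles) and on the - polarity array after turning its sign (squares), with the mean as a black tick, grouped by role; dashed lines mark 2-fold. Il1r2 stands alone to the right of the 2-fold line at 0.451 and 0.775, Ifngr1 is the only gene left of it on both arrays, and a wide gap between circle and square marks genes such as Il2ra whose ratio differed between the arrays.

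Il1r2, the decoy receptor that binds interleukin-1 without signalling, had the largest ratio of the 39. Its log10 ratio was 0.451 with + polarity and 0.775 with - polarity (2.82-fold and 5.96-fold), with a mean of 0.613 ± 0.23. It ranked 31 from the positive end among the 4331 genes. Both arrays were past 2-fold, and they differed from each other by more than 2-fold.

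The signalling counterpart of the decoy lay on the other side. Il1r1, the receptor through which interleukin-1 acts, was at -0.221 with + polarity and -0.259 with - polarity, with a mean of -0.240 ± 0.027 (1.74-fold). Both chains of the interleukin-18 receptor were on the same side as Il1r1, with means of -0.160 ± 0.060 for the binding chain Il18r1 and -0.169 ± 0.023 for the signalling chain Il18rap. Il1rn, the soluble antagonist that blocks Il1r1, was at -0.0243 with + polarity and -0.194 with - polarity, a mean of -0.109 that was smaller than its SD of 0.12. The shared accessory chain Il1rap had 0.118 with + polarity and -0.165 with - polarity and took no side. So of the 6 genes of this family, 1 was positive on both arrays, 4 were negative on both and 1 was split.

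Ifngr1, the ligand-binding chain of the interferon gamma receptor, was the only member past 2-fold on the negative side. Its log10 ratio was -0.395 with + polarity and -0.366 with - polarity, with a mean of -0.380 ± 0.020 (2.40-fold), and it ranked 163 from the negative end. The arrays differed little from each other. Its partner chain Ifngr2 lay on the opposite side, at 0.125 with + polarity and 0.0826 with - polarity (mean 0.104 ± 0.030, 1.27-fold).

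The chains of the type I interferon receptor were both negative. Ifnar2 was at -0.127 with + polarity and -0.372 with - polarity (mean -0.250 ± 0.17). Ifnar1 was at -0.170 with + polarity and -0.103 with - polarity (mean -0.136 ± 0.047). Only the - polarity value of Ifnar2 was past 2-fold. In the related interleukin-10 receptor the chains again lay on opposite sides. Il10ra, the chain particular to interleukin-10, had a mean of 0.109 ± 0.016, and Il10rb, which interleukin-10 shares with interleukin-22, had a mean of -0.229 ± 0.045 (1.69-fold). All 6 genes of the interferon and interleukin-10 receptors had matching signs, and 4 of them were negative.

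The promoters of both genes past 2-fold and of the paired type I interferon receptor genes are printed to show where a STAT-binding motif occurs among them. The sequences are from RefSeq on GRCm38.p6, run from 250 bases before to 50 after the start of the gene, and all lie on the + strand, at chr1:40085843-40086142 for Il1r2, chr10:19591699-19591998 for Ifngr1, chr16:91372533-91372832 for Ifnar2 and chr16:91484965-91485264 for Ifnar1. Capitals mark the gamma-activated site (GAS), searched as TTCNNNGAA, which reads the same on both strands.
Il1r2: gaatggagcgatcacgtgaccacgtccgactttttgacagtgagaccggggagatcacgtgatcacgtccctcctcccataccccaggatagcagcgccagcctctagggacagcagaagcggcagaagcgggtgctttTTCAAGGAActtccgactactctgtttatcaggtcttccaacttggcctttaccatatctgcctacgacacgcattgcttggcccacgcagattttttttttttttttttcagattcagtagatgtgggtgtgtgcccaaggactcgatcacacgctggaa
Ifngr1: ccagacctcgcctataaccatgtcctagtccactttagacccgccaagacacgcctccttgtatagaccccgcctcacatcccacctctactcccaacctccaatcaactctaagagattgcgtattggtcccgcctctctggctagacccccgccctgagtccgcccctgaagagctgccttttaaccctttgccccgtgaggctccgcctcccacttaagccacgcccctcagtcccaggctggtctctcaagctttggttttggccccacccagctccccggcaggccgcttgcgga
Ifnar2: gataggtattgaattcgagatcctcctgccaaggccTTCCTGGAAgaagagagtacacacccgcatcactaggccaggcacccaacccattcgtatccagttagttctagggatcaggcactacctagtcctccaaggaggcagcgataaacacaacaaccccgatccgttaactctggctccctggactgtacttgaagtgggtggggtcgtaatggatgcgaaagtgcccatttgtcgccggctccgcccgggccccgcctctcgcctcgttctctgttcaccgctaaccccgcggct
Ifnar1: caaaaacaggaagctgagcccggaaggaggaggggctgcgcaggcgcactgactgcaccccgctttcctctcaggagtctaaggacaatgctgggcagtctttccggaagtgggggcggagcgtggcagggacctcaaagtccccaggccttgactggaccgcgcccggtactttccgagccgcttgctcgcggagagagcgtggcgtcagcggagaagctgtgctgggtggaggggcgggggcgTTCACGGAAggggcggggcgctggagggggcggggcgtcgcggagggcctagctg

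The GAS letters began 111 bases before the start of Il1r2, 214 bases before that of Ifnar2 and 5 bases before that of Ifnar1, and were not found in the window of Ifngr1. RefSeq promoters were at hand for 33 of the 39 members, with 42 entries because some genes have several starts. The 6 members without an entry were Il10ra, Il10rb, Il12rb1, Il17ra, Il27ra and Il2rb. Of the 42 entries, 6 held the motif (14.3%), and of all 32851 promoters 8.30% did. The other 3 members with it were Il18r1, Il12rb2 and Il7r, so the motif occurred in genes of the positive side, of the negative side and near 0. The interferon-stimulated response element, searched as GAAANNGAAA on both strands, occurred in Stat2, Stat4 and Il1rap (3 of 42 entries, 7.14%) and in 3.44% of all promoters. None of the 4 printed promoters held it. A match of letters is not a measured binding site.

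**Figure D2:**
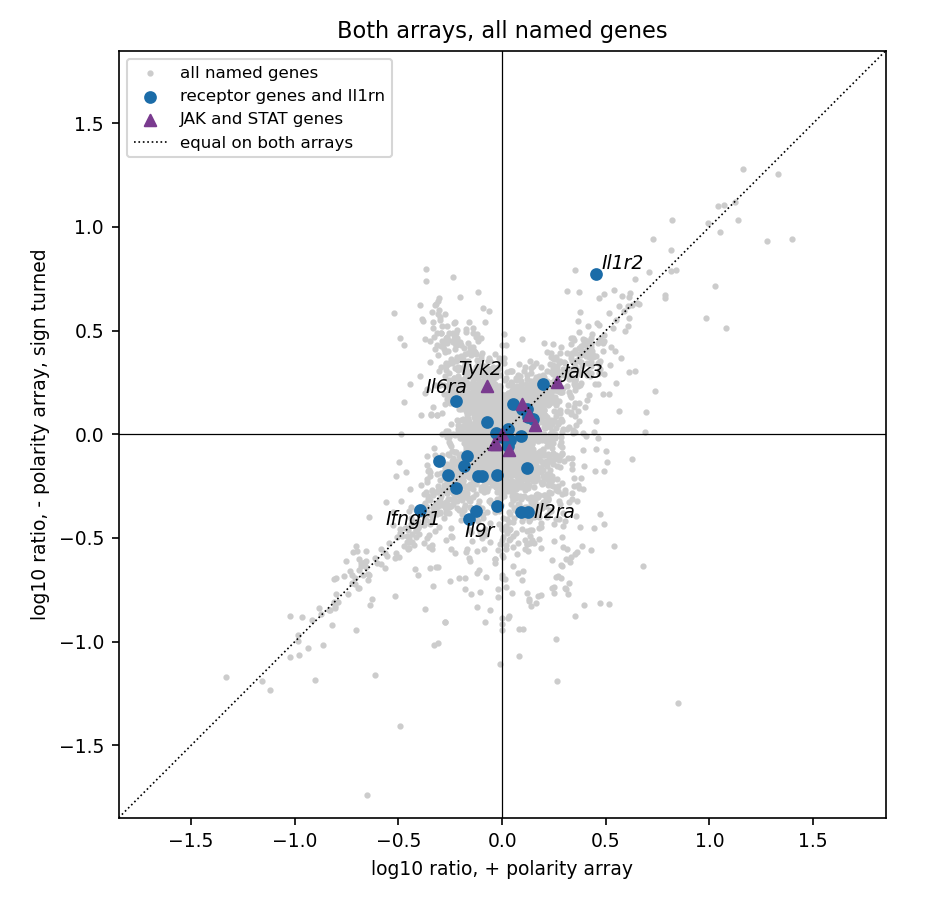
Log10 ratio on the + polarity array (horizontal) against the sign-turned log10 ratio on the - polarity array (vertical) for all 4331 named genes (grey), with receptor genes and Il1rn as blue circles and JAK and STAT genes as purple triangles. Il1r2 lies at the upper right and Ifngr1 on the dotted line of equal ratios at the lower left, whereas Il2ra, Il6ra and Tyk2 lie in the quadrants where the arrays have opposite signs.

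Receptor chains that work with the common gamma chain serve several interleukins, among them the survival and growth cytokines of T cells. None of the 6 measured was past 2-fold on the mean. Il9r, for interleukin-9, was at -0.162 with + polarity and -0.407 with - polarity (mean -0.284 ± 0.17, 1.92-fold), so only the - polarity array passed 2-fold. Il15ra, which presents interleukin-15, had 0.121 with + polarity and 0.124 with - polarity, a small positive ratio that was nearly equal on both. Il21r, for interleukin-21, was also positive, with a mean of 0.100 ± 0.066.

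Il7r, the survival receptor of many T cells, had 0.000980 with + polarity and -0.0135 with - polarity. Il2rb, the chain that interleukin-2 and interleukin-15 share, had -0.0308 with + polarity and 0.00841 with - polarity. Both genes were close to equal in the populations. Il2ra, the CD25 chain that gives high affinity for interleukin-2, had no settled side. Its 2 probes gave 0.163 and 0.0824 on the + polarity array and, in the same order, -0.720 and -0.0315 on the - polarity array, and the gene mean was -0.127 ± 0.35. The first probe alone made the - polarity value large.

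The measured receptors for cytokines of type 2 responses did not lie on the side of Gata3 and Il13 as a group. Il4ra, Il13ra1 and Il1rl1 had no probe of their own, so they were not read. Il5ra, for interleukin-5, was negative at -0.307 with + polarity and -0.130 with - polarity (mean -0.218 ± 0.12, 1.65-fold). Il13ra2, a decoy receptor for interleukin-13, had 0.0925 with + polarity and -0.375 with - polarity. Crlf2, the receptor for thymic stromal lymphopoietin (TSLP), had a mean of 0.0423 ± 0.069, and its 2 probes gave 0.0243 and 0.0604. Il17rb, a chain of the interleukin-25 receptor, had a mean of 0.00523 ± 0.044. Il3ra, for interleukin-3, had 0.0275 with + polarity and 0.0268 with - polarity. Among these 5, Il5ra alone reached 1.5-fold with matching signs. Il9r, given above, serves interleukin-9, which is also counted among type 2 cytokines. It too passed 1.5-fold on the negative side (mean -0.284 ± 0.17, 1.92-fold).

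Il12rb1, the chain shared by the receptors of interleukin-12 and interleukin-23, had the largest ratio in its family, 0.196 with + polarity and 0.244 with - polarity (mean 0.220 ± 0.034, 1.66-fold). Its partner in the interleukin-12 receptor, Il12rb2, had -0.0734 with + polarity and 0.0571 with - polarity and took no side. Il27ra, which pairs with gp130 for interleukin-27, was positive with a mean of 0.111 ± 0.054. Il6st, which encodes gp130 itself, was at -0.0233 with + polarity and -0.344 with - polarity. Its mean of -0.184 was smaller than its SD of 0.23 and rested on the - polarity array. Il6ra, the binding chain for interleukin-6, had -0.221 with + polarity and 0.161 with - polarity. Il11ra2 was near 0 (-0.0129 ± 0.061), and a close relative, Il11ra1, could share signal with its probe. Il17ra, the chain common to interleukin-17 receptors, was negative with both probes (means -0.0888 and -0.212), at -0.0989 with + polarity and -0.202 with - polarity for the gene.

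None of the 9 JAK and STAT genes was past 2-fold, a count near the background of 8.75% of all named genes. Their median was 0.0820, and that of all named genes was 0.00231. Jak3, the kinase that binds the common gamma chain, had the largest ratio among them, 0.265 with + polarity and 0.254 with - polarity (mean 0.260 ± 0.0082, 1.82-fold). It ranked 201 from the positive end, and its arrays were nearly equal. Jak2, the kinase of the interferon gamma receptor and of several haematopoietic cytokine receptors, was positive with both probes, with a mean of 0.121 ± 0.037 (1.32-fold). Tyk2, which serves the type I interferon and interleukin-12 receptors, had -0.0710 with + polarity and 0.235 with - polarity and took no side. The median of the JAKs and STATs is the value of Tyk2, so it rests on a gene without a settled side, and on each array alone it was 0.0338 (+ polarity) and 0.0431 (- polarity).

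Among the STATs, only the closely related pair Stat5a and Stat5b, which act below the receptors for several of these interleukins, were positive on both arrays. Stat5a was at 0.132 with + polarity and 0.0941 with - polarity (mean 0.113 ± 0.027, 1.30-fold). Stat5b was at 0.158 with + polarity and 0.0431 with - polarity (mean 0.101 ± 0.081, 1.26-fold). The genes are near-copies of each other, so their probes may share signal. Stat6, the STAT of interleukin-4 and interleukin-13, was at -0.0412 with + polarity and -0.0448 with - polarity. Stat4, the STAT of interleukin-12, had 0.00157 with + polarity and -0.000620 with - polarity. Stat2, used by type I interferons, had a mean of -0.0394 ± 0.011, and Stat3, used by the interleukin-6 and interleukin-10 receptors, one of -0.0202 ± 0.076. Of these 4, Stat6 had the largest mean ratio, 1.10-fold in size.

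Several cytokine genes had far larger ratios than the genes of their receptors. A set of 20 ligand genes was paired with measured receptor chains. Of these ligands 9 were past 2-fold on the mean, and none of the 12 receptor genes paired with them was. The pairing was not complete. Il12a (-0.0512 ± 0.11) and Lif (-0.0704 ± 0.0059), each with a measured receptor chain, were left out. So were the pairs of Il11 with Il11ra2 and of Ebi3 with Il6st. With 8.75% of all named genes past 2-fold, 0 of 12 is close to the background and is no result about the receptors. Il6 was at 1.22 ± 0.083, beside -0.0304 ± 0.27 for Il6ra and -0.184 ± 0.23 for Il6st. Il13 was at 1.01 ± 0.055, beside -0.141 ± 0.33 for its decoy Il13ra2. Il7 was at 0.307 ± 0.10, beside -0.00627 ± 0.010 for Il7r. On the negative side, Il22 was at -0.940 ± 0.11 and Il10rb at -0.229 ± 0.045. Il18 was at -0.721 ± 0.0059, on the same side as both chains of its receptor. Il15 was at -0.950 ± 0.65 (-0.491 with + polarity and -1.41 with - polarity), with Il15ra on the other side. Conversely, Ifng was at -0.0592 ± 0.047, beside -0.380 ± 0.020 for Ifngr1. Over the whole list of 24 measured ligand genes, 5 were past 2-fold on the positive side and 4 on the negative side, with a median of 0.00478. These values come from 1 pair of arrays, and ligand and receptor transcripts need not come from the same cells.

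**Figure D3:**
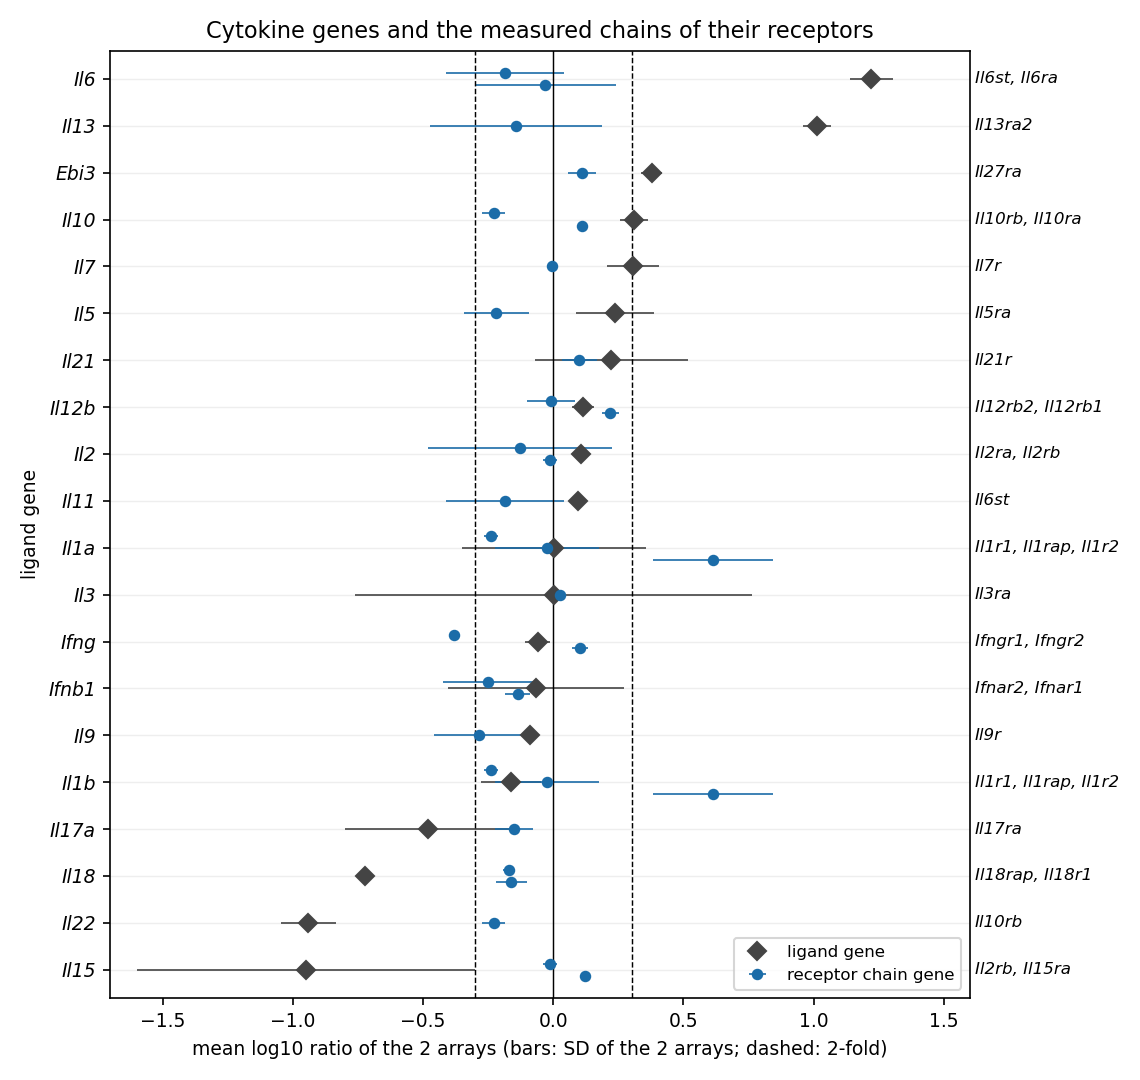
Mean log10 ratio of 20 cytokine genes (diamonds) and of the measured receptor chains paired with them (circles, named at the right in the order drawn from top to bottom). Bars are the SD of the 2 arrays and dashed lines mark 2-fold. Not every measured chain of each receptor was paired. Ligands spread from -0.950 (Il15) to 1.22 (Il6), whereas only Il1r2 and Ifngr1 among the receptor genes lie outside the dashed lines.

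Members that are neighbours on a chromosome did not all share a side. On chromosome 1, Il1r2 and Il1r1 are adjacent, and Il18r1 and Il18rap are adjacent, with 2 protein-coding genes between the pairs in RefSeq's order. Il1r2 had a mean of 0.613 and the other 3 lay between -0.240 and -0.160. On chromosome 16, Ifnar2, Il10rb, Ifnar1 and Ifngr2 follow each other with no protein-coding gene between them. The first 3 were negative on both arrays (-0.250, -0.229 and -0.136), and Ifngr2 was positive on both (0.104). The adjacent genes Stat5b, Stat5a and Stat3 on chromosome 11 had means of 0.101, 0.113 and -0.0202.

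**Figure D4:**
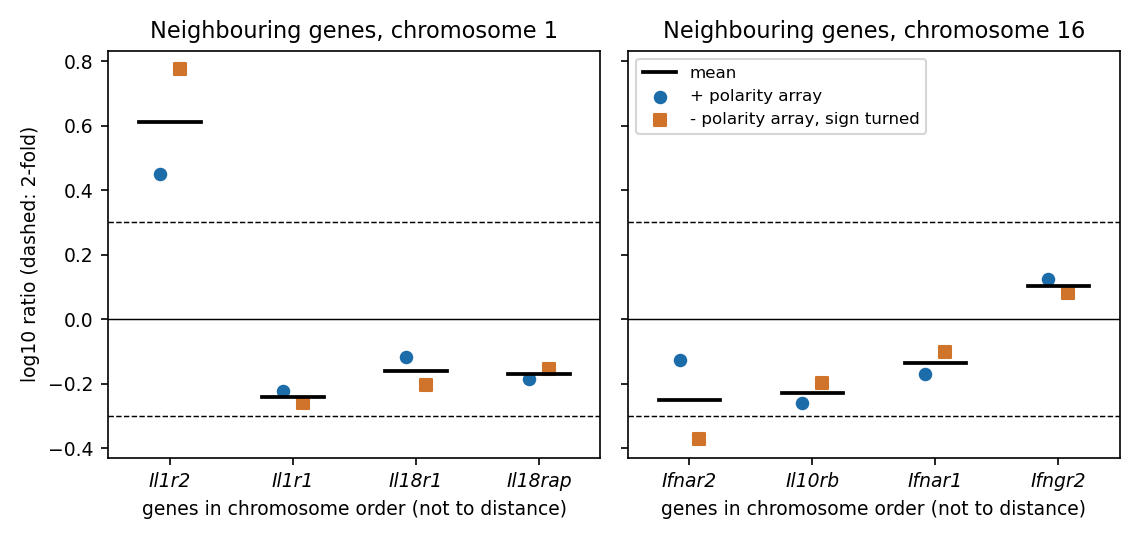
Log10 ratio on each array (circles, + polarity; squares, - polarity with its sign turned) and mean (black bars) for neighbouring receptor genes on chromosome 1 and chromosome 16, in chromosome order and not to distance. Il1r2 and Ifngr2 lie above 0, on the opposite side from the 3 other genes of their group.

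Among genes that act after the receptor, feedback inhibitors and STAT target genes included larger ratios than the JAKs and STATs. As background to the counts, 3.72% of all named genes were past 2-fold on the positive side and 5.03% on the negative side. Of 14 measured feedback inhibitors, 2 were past 2-fold on the positive side and 0 on the negative side, with a median of 0.00768. These were Cish (0.814 ± 0.032, 6.52-fold) and Socs1 (0.348 ± 0.00064, 2.23-fold), both of which are induced by STATs and dampen them. Of 14 STAT target genes of lymphocytes, 4 were past 2-fold on the positive side and 0 on the negative side, with a median of 0.0277. They were the transcription factor genes Batf (0.624 ± 0.064), Gata3, Irf4 (0.443 ± 0.059) and Prdm1 (0.404 ± 0.088). Both lists were drawn up with earlier results of these data known, and Gata3 was already a landmark of the positive side. The counts are therefore no test of STAT activity. The other targets lay below 2-fold on both sides. The largest were Id2, an inhibitor of E protein transcription factors (0.275 ± 0.0073), the kinase gene Pim1 (-0.232 ± 0.052) and Myc (-0.176 ± 0.023). Of the survival genes, Bcl2l1 was at 0.148 ± 0.0049 and Bcl2 at -0.0445 ± 0.035.

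Of 25 listed interferon-induced genes only 7 were measured, and Isg15, Ifit1, Mx1 and Rsad2 were not among them. None of the 7 was past 2-fold, and their median was 0.0621. With 8.75% of all named genes past 2-fold, 0 of 7 is close to the background and is no result about these genes. The largest in size were Bst2, a virus-tethering protein, at -0.274 ± 0.10 and the immunoproteasome genes Psmb9 (0.193 ± 0.011) and Psmb8 (0.184 ± 0.030). Of 5 genes of Toll/interleukin-1 receptor signalling, Irak3, an inhibitor of that pathway, was past 2-fold on the negative side (-0.382 ± 0.32), with -0.155 with + polarity and -0.609 with - polarity. Myd88, the adaptor of the pathway, was at 0.0168 ± 0.029. Of 10 other type I cytokine receptor genes, 1 was past 2-fold, Epor for erythropoietin at -0.604 ± 0.057. Csf2rb, the chain that interleukin-3 and interleukin-5 receptors share, was at -0.221 ± 0.11. That is the side of Il5ra and not of Il3ra (0.0272 ± 0.00049).

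Genes listed as markers of macrophages, NK cells and B cells lay mainly on the negative side. The marker lists were drawn up with earlier results of these data known. Of all named genes, 5.03% were past 2-fold on the negative side and 3.72% on the positive side. Of 12 macrophage and monocyte markers, 10 were past 2-fold on the negative side and 1 on the positive side (Ccr2, 0.315 ± 0.052), with a median of -0.864 and a range from -1.05 (Adgre1) to 0.315. Of 6 NK cell markers, 5 were past 2-fold on the negative side (median -0.677, range -0.979 to -0.0723), and of 10 B cell markers 4 were (median -0.240, range -0.719 to 0.193). Of 4 dendritic cell markers, 1 was positive on both arrays and 2 were negative on both, with 1 past 2-fold on the negative side. Of 5 erythroid and platelet markers 2 were past 2-fold on that side, and of 3 mast cell and basophil markers 0 were. Of 4 alpha beta T cell markers, 2 were past 2-fold on the negative side and 1 on the positive side. The levels of these markers cannot be read from ratios, nor can the cells that carried them, gamma delta T cells included. Their part in the receptor ratios was not tested. In RNA from mixed cells, fewer cells of a type and less RNA per cell cannot be told apart. Which cells carried the transcript of Il1r2, Ifngr1 or any other member was not tested. Of 8 listed neutrophil genes only 2 were measured. These genes, Mpo and Ngp, had opposite signs on the arrays, with means of 0.0132 ± 0.46 and 0.0351 ± 0.12, so they give no side. Of 8 general T cell markers, only Cd5 was past 2-fold (0.614 ± 0.0077), Lat was at 0.179 ± 0.010 and the CD3 chain genes Cd3d, Cd3e and Cd3g lay between -0.00738 and 0.110. Cd247, the zeta chain of the CD3 complex, was at -0.185 ± 0.13 and Cd2 at 0.205 ± 0.0086.

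**Figure D5:**
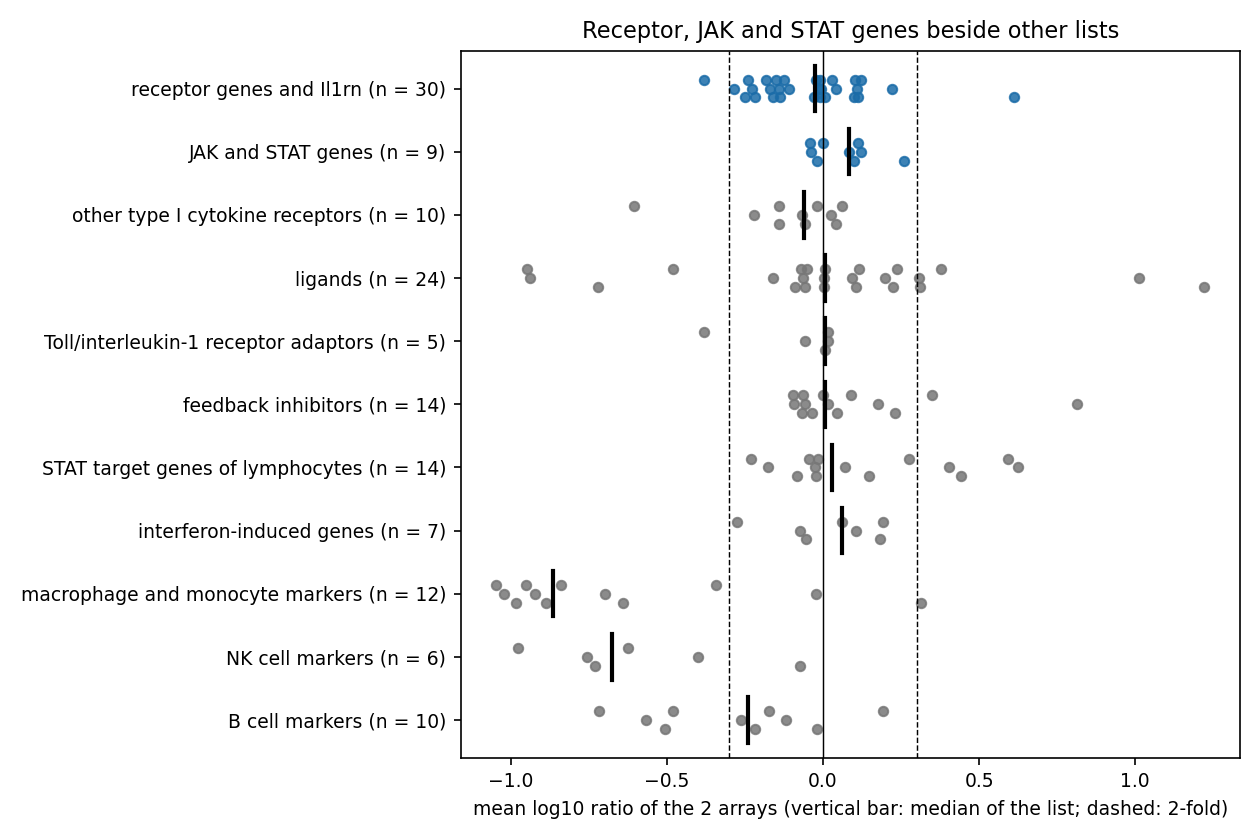
Mean log10 ratio of each gene in the receptor and JAK/STAT groups (blue) and in lists of pathway genes and cell type markers (grey), with a black bar at each median and dashed lines at 2-fold. Receptor, JAK and STAT genes lie between the dashed lines apart from Il1r2 and Ifngr1, ligand genes spread widely to both sides, and macrophage and NK cell markers lie mostly on the negative side.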

How the data were processed

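The authors deposited a log ratio of both channels for each probe and array, which was read as log10. For the base, the numerator, the scanner, background correction and normalization, nothing is stated in the labels or the table. GEO's platform annotation gave 4654 of the 8014 probes a single gene, 73 several genes and 3287 no gene, and 0 of those with several named a member. All 39 members were found in RefSeq by gene identifier, with the same symbols. The - polarity array was multiplied by -1, probes of a gene were averaged per array (4 members had 2 probes) and the 2 arrays were averaged. The deposited columns correlated at r = -0.301 across probes, the sign that dye-reversed ratios give but a weak correlation. With the - polarity array turned, r was 0.403 over all named genes and 0.623 over the members. The SD across probes was 0.198 with + polarity and 0.256 with - polarity. In 181 named genes, and in 0 members, the signs were opposite and the difference of the arrays divided by 2 was past 2-fold. A gene was past 2-fold when its mean was at least 0.301 in size with the same sign on both arrays, which is a rule of size and not a test.

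The members and the lists of pathway genes and markers were chosen with earlier results of these data known. Any member could be named. From pathway lists, genes past 2-fold and up to 3 of the largest others were named, and from marker lists up to 3 of the largest, with Lat, Cd5, Gata3, Il13 and Cd8b1 as landmarks. Outside this rule, Ifng, Il12a, Lif, Myd88, Bcl2, Bcl2l1, Ccr2, the neutrophil and CD3 genes and the ligands set beside receptors were named after their values were seen. Python 3.11.15, pandas 2.3.3 and NumPy 2.4.6 were used.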

Additional observations from a re-analysis of the deposited data

How the results depend on the processing

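No paired analysis was possible because the 2 arrays form 1 group and 1 replicate. Il1r2 and Ifngr1 were the members past 2-fold when arrays were centred or scaled, when each probe stood alone and when each array had to pass 2-fold. At 1.5-fold, 3 members were positive and 7 negative (all genes 365 and 409). At 3-fold, 0 members were negative (all genes 48 positive and 96 negative), and Il1r2 alone was positive. Read as log2 or as natural logs, 0 members passed on either side, and of all genes 10 and 22 were positive and 7 and 40 negative, in that order of bases. With single arrays, negative members numbered from 2 to 6: Il5ra joined Ifngr1 on the + polarity array, and Ifnar2, Il13ra2, Il2ra, Il6st and Il9r joined it on the - polarity array. Positive genes then numbered from 228 to 306 and negative genes from 224 to 436. The members' median ran from -0.0262 to 0.00157 and that of interleukin receptor chains from -0.0262 to 0.0275, so neither has a settled sign. The median of JAKs and STATs (0.0820) was 0.0338 to 0.0431 on single arrays, 0.0676 with scaled arrays, 0.0913 by probe, 0.0247 read as log2 and 0.0356 as natural logs. Between single arrays 13 members changed sign, and the cause was not tested. Without intensities, dim probes could not be set apart.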
